A study of Mus musculus with 17 samples.

Results

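S100 proteins, annexins and galectins were followed across cultured mouse CD4 T cells on 17 Affymetrix M430v2 arrays. The list holds 9 genes: S100a4, S100a6, S100a10, S100a11, Anxa1, Anxa2, Anxa6, Lgals1 and Lgals3. The members were chosen by their measured values, because Lgals3, S100a4, S100a6 and Anxa2 read lower with retinoic acid (RA) or with dendritic cells of the gut. Those differences are therefore given below as values without a test. Of 18194 genes with a probe set of their own, 8 are members, with 17 such probe sets between them. The ninth member, S100a11, is covered by 1 probe set that it shares with S100a11-ps and Gm12854, so no level is assigned to it.

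In the first experiment CD4+Foxp3- T cells came from spleens of C57BL/6-Foxp3/GFP reporter mice (male, aged 6 to 10 weeks), and 3 mice were pooled per array. Their partners over 5 days of culture were dendritic cells of the lamina propria (LP-DC), spleen dendritic cells plus 100 nM RA (Sp-DC plus RA), or spleen dendritic cells alone (Sp-DC). All 3 cultures held 10 T cells per dendritic cell, antibody to CD3 at 1 µg/ml, TGF-beta at 0.6 ng/ml and IL-2 at 5 ng/ml. After culture the CD4+ cells were sorted into Foxp3+ and Foxp3- by GFP. The labels of that sort conflict, since the source label reads Foxp3- on 5 of the 6 arrays whose titles read Foxp3+. Arrays are grouped here by title, so Foxp3+ and Foxp3- below mean the sort as the titles give it. There are 2 arrays in each of these 6 groups, except 1 array for Foxp3- cells of Sp-DC plus RA. In the second experiment CD44hi CD62L- CD25- memory CD4 cells of C57BL/6 mice (male, the same ages, 3 per array) were cultured for 48 hours with naive CD4 cells. They outnumbered the naive cells 2 to 1 and were given anti-CD3/CD28 beads, TGF-beta at 10 ng/ml and IL-2 at 20 U/ml, with or without 100 nM RA. A congenic marker served to sort them afterwards, and each of the 2 groups has 3 arrays. The series title names the question behind these cultures, whether RA promotes Foxp3 through its action on CD44hi cells. RNA was amplified in successive rounds before labelling, and whether amplification altered any level was not tested. Nothing in the labels says that the arrays of a group came from separate sorts, so the spread between them may be partly technical.

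S100 proteins are small proteins, most of which bind calcium, and they work by docking to partner proteins. S100a4 binds non-muscle myosin and is known for its place in cell motility, and S100a10 forms a complex with Anxa2 under the plasma membrane. Annexins bind acidic phospholipids when calcium rises, and Anxa1 is also secreted and acts on formyl peptide receptors. Galectins bind galactose-containing sugars on surface glycoproteins. Galectin-1 (Lgals1) and galectin-3 (Lgals3) are both known to act on T cell survival and on signalling from the T cell receptor. RA is the active form of vitamin A and is made by dendritic cells of the gut.

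Promoter sequence is shown for S100a4, S100a6, Anxa2 and Lgals3, the genes named in the choice of members, because these 4 differ in their letters near the start. Each line runs 5′ to 3′ on the gene's strand from 250 bases before to 50 bases after the annotated start (RefSeq, GRCm38.p6). Capitals mark matches on either strand to TATAAA (the TATA box), AGGTCA (the core letters that nuclear receptors bind), TGANTCA (the AP-1 motif) and GGGCGG (the GC box). These motifs do not overlap in the sequences shown.
S100a4: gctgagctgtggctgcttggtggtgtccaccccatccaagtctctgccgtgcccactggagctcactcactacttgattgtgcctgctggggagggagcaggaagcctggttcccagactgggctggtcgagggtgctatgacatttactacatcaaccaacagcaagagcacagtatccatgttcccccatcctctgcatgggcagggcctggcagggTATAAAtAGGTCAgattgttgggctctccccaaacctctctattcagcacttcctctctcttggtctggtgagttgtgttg
S100a6: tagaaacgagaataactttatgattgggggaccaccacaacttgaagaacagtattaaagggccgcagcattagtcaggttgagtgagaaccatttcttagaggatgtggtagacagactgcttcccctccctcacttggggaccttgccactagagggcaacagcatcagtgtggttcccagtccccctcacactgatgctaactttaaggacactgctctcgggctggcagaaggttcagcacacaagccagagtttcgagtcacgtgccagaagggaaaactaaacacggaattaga
Anxa2: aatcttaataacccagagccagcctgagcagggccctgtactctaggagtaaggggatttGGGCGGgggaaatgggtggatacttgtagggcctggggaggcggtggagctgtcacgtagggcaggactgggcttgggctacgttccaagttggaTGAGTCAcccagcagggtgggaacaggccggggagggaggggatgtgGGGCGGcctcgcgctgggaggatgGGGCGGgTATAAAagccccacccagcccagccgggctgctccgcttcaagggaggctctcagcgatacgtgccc
Lgals3: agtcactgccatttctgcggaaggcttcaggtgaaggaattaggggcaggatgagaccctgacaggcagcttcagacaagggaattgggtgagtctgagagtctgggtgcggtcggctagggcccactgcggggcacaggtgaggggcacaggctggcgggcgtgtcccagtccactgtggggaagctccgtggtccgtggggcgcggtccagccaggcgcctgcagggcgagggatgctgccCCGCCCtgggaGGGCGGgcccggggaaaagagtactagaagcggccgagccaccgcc
The windows lie at chr3:90603520-90603819 for S100a4, chr3:90612644-90612943 for S100a6, chr9:69453433-69453732 for Anxa2 and chr14:47373610-47373909 for Lgals3, all on the plus strand. The S100a4 window holds TATAAA from -31 and AGGTCA from -24, counted from the start. The Anxa2 window holds TGAGTCA from -95, TATAAA from -17 and 3 copies of GGGCGG. Lgals3 has 2 copies of GGGCGG, and none of the 4 motifs occurs in the S100a6 window. Of 32851 mouse promoter windows of this length, 13.6% hold TATAAA, 16.3% AGGTCA, 7.81% TGANTCA and 35.7% GGGCGG. A promoter sequence was at hand for 6 of the 9 members. In the RefSeq gene order S100a5 is the only protein-coding gene between S100a4 and S100a6, and S100a11 lies next to S100a10.

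All values below are log2 of the deposited intensity, on which 1 unit is a doubling. The array medians ran from 5.88 to 5.98, and a level near or under them is close to background. T cell identity was plain on every array, since 7 of 7 measured T cell markers lay above the array median. The Foxp3 probe set read 4.09 to 4.53 in Foxp3+ and 3.88 to 4.44 in Foxp3- co-cultured cells, near background in both, so it does not check the sort. Of 5 tested markers of regulatory T cells, 2 were higher in Foxp3+ cells in the mean of the 3 cultures, where 0.821% of all genes passed in either direction. With array number as a block 4 were higher, where 4.62% passed. The median of the 5 was 1.53, against -0.03 over all genes. The 2 that passed without the block were Gpr83, by 2.54 ± 0.27 (SE, limma adjusted p = 0.0163), and Izumo1r, by 1.54 ± 0.11 (adjusted p = 0.00376). Levels of different genes are not compared here, because each probe set has its own response.

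**Figure D1:**
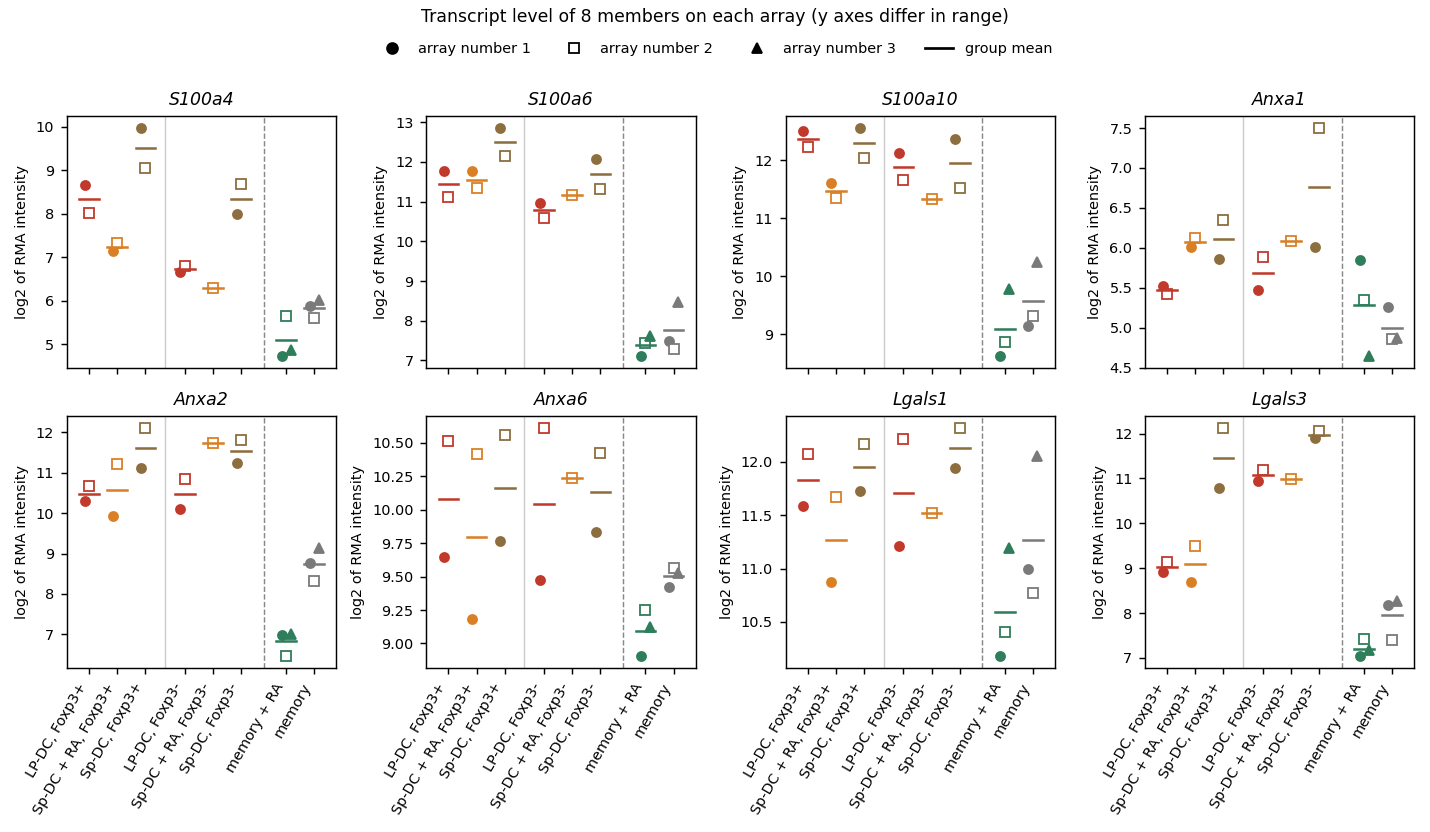
Log2 RMA intensity of 8 genes (y axis, with a range of its own in each panel) by culture and sort (x axis). Each symbol is 1 array, its shape gives the array number, and bars are group means. Lgals3 sits at 8.69 to 9.49 in Foxp3+ cells of LP-DC and of Sp-DC plus RA, under the 10.78 to 12.13 of all other co-culture arrays.

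S100a4, the motility-linked S100 protein, had the widest spread of group means over the co-culture, 9.51 to 6.29, with Lgals3 next at 11.98 to 9.02. In Foxp3+ cells it read 8.66 and 8.01 with LP-DC, 7.15 and 7.32 with Sp-DC plus RA, and 9.98 and 9.04 with Sp-DC. In Foxp3- cells it read 6.67 and 6.80 with LP-DC, 6.29 on the single array with RA, and 7.99 and 8.69 with Sp-DC. Within each sort the order was the same, highest with Sp-DC and lowest with RA, and no arrays of neighbouring cultures overlapped. Over all 6 groups the only neighbours whose arrays overlapped were Foxp3- cells with Sp-DC and Foxp3+ cells with LP-DC. In memory cells S100a4 read 4.73, 5.66 and 4.88 with RA and 5.88, 5.60 and 6.02 without, close to background, and it did not pass the filter on low values there.

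S100a6, a small calcium-binding protein of the same gene cluster as S100a4, was among the bright probe sets of the co-culture. Foxp3+ cells had 11.78 and 11.13 with LP-DC, 11.77 and 11.34 with Sp-DC plus RA, and 12.87 and 12.15 with Sp-DC. Foxp3- cells had 10.97 and 10.60 with LP-DC, 11.16 with RA, and 12.08 and 11.31 with Sp-DC. Foxp3+ cells with Sp-DC stood above every other group, while the next 4 groups could not be ordered because their neighbouring arrays overlapped. Memory cells had 7.10, 7.43 and 7.60 with RA and 7.50, 7.30 and 8.47 without, and these overlapped.

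S100a10, the partner of Anxa2, was lowest in the RA cultures. In Foxp3+ cells it read 12.50 and 12.23 with LP-DC, 11.60 and 11.34 with Sp-DC plus RA, and 12.56 and 12.04 with Sp-DC. In Foxp3- cells it read 12.12 and 11.66 with LP-DC, 11.33 with RA, and 12.37 and 11.53 with Sp-DC. The 4 groups without RA overlapped from neighbour to neighbour, and both groups with RA lay below all of their arrays except the 11.53 of Sp-DC Foxp3- cells. Memory cells had 8.63, 8.86 and 9.78 with RA and 9.15, 9.31 and 10.24 without.

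Anxa2, the annexin that pairs with S100a10, read 10.30 and 10.67 with LP-DC, 9.93 and 11.22 with Sp-DC plus RA, and 11.12 and 12.12 with Sp-DC in Foxp3+ cells. Foxp3- cells read 10.10 and 10.85 with LP-DC, 11.73 with RA, and 11.25 and 11.82 with Sp-DC. The 2 arrays of Foxp3+ cells with RA were 1.29 apart, as wide as the differences between groups. Against the Sp-DC Foxp3+ array of the same number they differed by -1.19 and -0.90. In memory cells the groups stood clear of each other, with 6.99, 6.46 and 7.02 with RA against 8.78, 8.32 and 9.12 without. Anxa1, known for its part in ending inflammation, stayed within 5.43 to 6.35 on co-culture arrays, apart from 7.51 on the second Sp-DC Foxp3- array. In memory cells it read 4.64 to 5.85 with RA and 4.86 to 5.26 without, at background. Anxa6, an annexin with a doubled core of repeats, ran from 9.19 to 10.61 in the co-culture, and its group means differed by less than the distance between the arrays of most groups.

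Lgals3, the gene of galectin-3, was lowest in Foxp3+ cells of LP-DC and of Sp-DC plus RA. These low values also entered the choice of the gene. Foxp3+ cells had 8.91 and 9.13 with LP-DC and 8.69 and 9.49 with Sp-DC plus RA, against 10.78 and 12.13 with Sp-DC. Foxp3- cells had 10.95 and 11.18 with LP-DC, 10.997 with RA, and 11.89 and 12.06 with Sp-DC. The other 4 co-culture groups overlapped from neighbour to neighbour in the order of their means, and a gap lay between them and the Foxp3+ cells of LP-DC and of Sp-DC plus RA. Memory cells had 7.04, 7.41 and 7.18 with RA and 8.19, 7.40 and 8.26 without, and 1 array of the untreated cells overlapped the treated ones. Lgals1, the gene of galectin-1, was bright everywhere, with 10.87 to 12.32 in the co-culture and 10.18 to 12.05 in memory cells.

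The mean of the sort over the 3 cultures, each with the same weight, is not a contrast that chose the genes, and it was tested. It rests on the same arrays, however, and the Foxp3+ values with LP-DC and with RA that enter it also entered the choice. Its p-values are therefore not independent of the choice, and they are given as a description. In that mean Lgals3 passed as lower in Foxp3+ cells in the fits without and with a term for array number. Between these fits, S100a4 and S100a6 passed as higher only in the one with that term. The other 5 genes did not pass in any fit of the mean. Lgals3 fell by 1.49 ± 0.26 (2.81-fold, 6 Foxp3+ against 5 Foxp3- arrays, limma adjusted p = 0.0492) in the fit without a term for array number. Array numbers were also taken to pair the samples, a pairing inferred from the residuals and not given by the titles. With the number as a block the difference was -1.40 ± 0.17 (adjusted p = 0.00131). S100a4 was higher by 1.23 ± 0.22 without the block, which did not pass (adjusted p = 0.0547), and rose by 1.22 ± 0.21 with it (adjusted p = 0.00809). S100a6 showed 0.63 ± 0.22 without the block (adjusted p = 0.447) and rose by 0.53 ± 0.09 with it (adjusted p = 0.00789). Thus 1 of the 8 genes passed without the block, where 0.821% of 11695 genes did, and 3 passed with it, where 4.62% did. Since the choice used these arrays, the counts do not show an excess over all genes.

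Pairs of arrays with the same number, from the same culture, show how steady these differences were. S100a4 was higher in Foxp3+ cells in 5 of 5 pairs, by 0.35 to 1.99, and S100a6 in 5 of 5, by 0.18 to 0.84. Lgals3 was lower in 4 of 5 pairs, by -2.05 at most, and the exception was the second pair with Sp-DC at 0.07. S100a10 was also higher in 5 of 5 pairs, by 0.01 to 0.57, yet it did not pass (0.33 ± 0.19, adjusted p = 0.895, and 0.25 ± 0.10, adjusted p = 0.276 with the block). For Anxa1 the mean difference was -0.29, for Anxa2 -0.35, for Anxa6 -0.12 and for Lgals1 -0.11, each with pairs on both sides of 0. The call of Lgals3 without the block was marginal. It was lost in 8 of 10 fits that left out 1 array (adjusted p = 0.012 to 0.143), all but those without either Sp-DC Foxp3+ array, and in none of 10 with the block. With 1 array left out, the S100a4 difference ran from 1.08 to 1.39 without the block and from 1.01 to 1.42 with it. The S100a6 difference ran from 0.50 to 0.76 without the block and from 0.48 to 0.57 with it. Neither gene had passed without the block when all arrays were used.

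**Figure D2:**
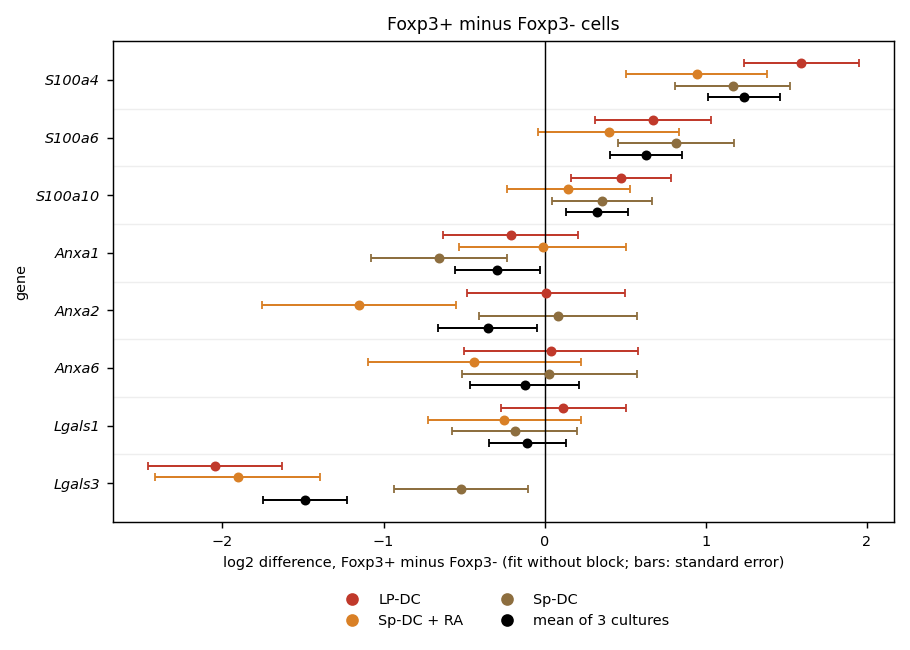
Log2 difference, Foxp3+ minus Foxp3- cells (x axis), for each gene (y axis) in each culture and for the mean of the 3 cultures, from the fit without the block. Points are estimates and bars their standard errors, and the Sp-DC plus RA estimates rest on 1 Foxp3- array. S100a4 is above 0 in all cultures, and Lgals3 is near -2 in 2 cultures and at -0.52 with Sp-DC.

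Culture by culture the sort differences are given as values without a test, because each uses arrays of the RA and LP-DC contrasts that chose the genes. Lgals3 was at -2.04 ± 0.42 with LP-DC, -1.90 ± 0.51 with Sp-DC plus RA and -0.52 ± 0.42 with Sp-DC. S100a4 was at 1.59 ± 0.36 with LP-DC, 0.94 ± 0.44 with Sp-DC plus RA and 1.17 ± 0.36 with Sp-DC. S100a6 was at 0.67 ± 0.36, 0.40 ± 0.44 and 0.81 ± 0.36 in the same order of cultures. Anxa2 was at 0.01 ± 0.49 with LP-DC, -1.15 ± 0.60 with Sp-DC plus RA and 0.08 ± 0.49 with Sp-DC. With the block the Sp-DC plus RA values were -1.63 for Lgals3, 0.89 for S100a4, 0.10 for S100a6 and -0.75 for Anxa2. Whether the cultures differ in these values was not tested.

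Of 4 tested markers of CD8 T and NK cells, 1 was lower in Foxp3+ cells in the mean of the sort without the block and 2 with it, where 0.821% and 4.62% of all genes passed in either direction. The median of the 4 was -1.34, against -0.03 over all genes. Klrd1, an NK receptor, fell by 2.23 ± 0.24 in Foxp3+ cells (adjusted p = 0.0163). Gzma, which encodes granzyme A, was at -2.92 ± 0.51 (adjusted p = 0.0502) and passed with the block (-2.86 ± 0.46, adjusted p = 0.0068). The summed linear intensity of the 6 measured markers was 1481 to 1973 in LP-DC Foxp3+ cells, 2263 to 2803 in Sp-DC plus RA Foxp3+ cells and 3874 to 5062 in Sp-DC Foxp3+ cells. In Foxp3- cells it was 5095 to 6851 with LP-DC, 5593 with RA and 7370 to 7587 with Sp-DC. Cd8a itself stayed at 4.68 to 7.01 on the co-culture arrays. The part of these transcripts in the Lgals3 difference was not tested. In bulk samples such as these, fewer cells that carry a transcript and less of it per cell cannot be told apart.

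The RA and LP-DC differences follow as a description, since they chose the genes. Both are taken against the same Sp-DC arrays, so they are set side by side and not compared as separate evidence. In Foxp3+ cells, S100a4 was at -2.27 ± 0.36 (4.84-fold lower) with RA and at -1.18 ± 0.36 with LP-DC. S100a6 was at -0.96 ± 0.36 with RA and -1.06 ± 0.36 with LP-DC. S100a10 was at -0.83 ± 0.31 with RA but at 0.06 ± 0.31 with LP-DC, so the members did not all go the same way with gut dendritic cells.

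Among the annexins in Foxp3+ cells, Anxa2 was at -1.04 ± 0.49 with RA and -1.14 ± 0.49 with LP-DC. Anxa1 was at -0.03 with RA and -0.63 with LP-DC, and Anxa6 at -0.36 and -0.08. Lgals3 had the largest difference of the 8 genes in both, -2.37 ± 0.42 (5.16-fold) with RA and -2.43 ± 0.42 (5.41-fold) with LP-DC. Lgals1 was at -0.68 ± 0.39 with RA and -0.12 ± 0.39 with LP-DC. With RA 8 of 8 genes lay below 0, with a median of -0.89 against 0.00 over all genes, and 5 had arrays that did not overlap, as 12.3% of all genes did in that direction. With LP-DC 7 of 8 lay below 0, with a median of -0.85 against 0.00 over all genes, and 5 had no overlap, against 18.6% of all genes. These counts only restate how the list was made.

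In Foxp3- cells S100a4 was at -2.05 ± 0.44 with RA (1 array) and -1.60 ± 0.36 with LP-DC, close to its values in Foxp3+ cells. Lgals3 was at -0.98 ± 0.51 with RA and -0.91 ± 0.42 with LP-DC, 1.97-fold and 1.88-fold lower. Anxa2 was at 0.19 ± 0.60 with RA, but at -0.21 ± 0.25 with the block, and at -1.06 ± 0.49 with LP-DC. S100a6 was at -0.54 ± 0.44 with RA and -0.91 ± 0.36 with LP-DC. With LP-DC 8 of 8 lay below 0 (median -0.91, all genes -0.01). With RA 6 of 8 did (median -0.62, all genes 0.05), and 8 of 8 with the block (median -0.65), where Anxa6 was at -0.36 and not at 0.11. Arrays of 5 genes did not overlap in each, against 17.7% and 22.1% of all genes. Set directly against Sp-DC plus RA in Foxp3+ cells, LP-DC gave higher S100a4 (1.095 ± 0.36) and S100a10 (0.89 ± 0.31), while S100a6 (-0.10 ± 0.36), Anxa2 (-0.09 ± 0.49) and Lgals3 (-0.07 ± 0.42) differed by less than their standard errors.

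**Figure D3:**
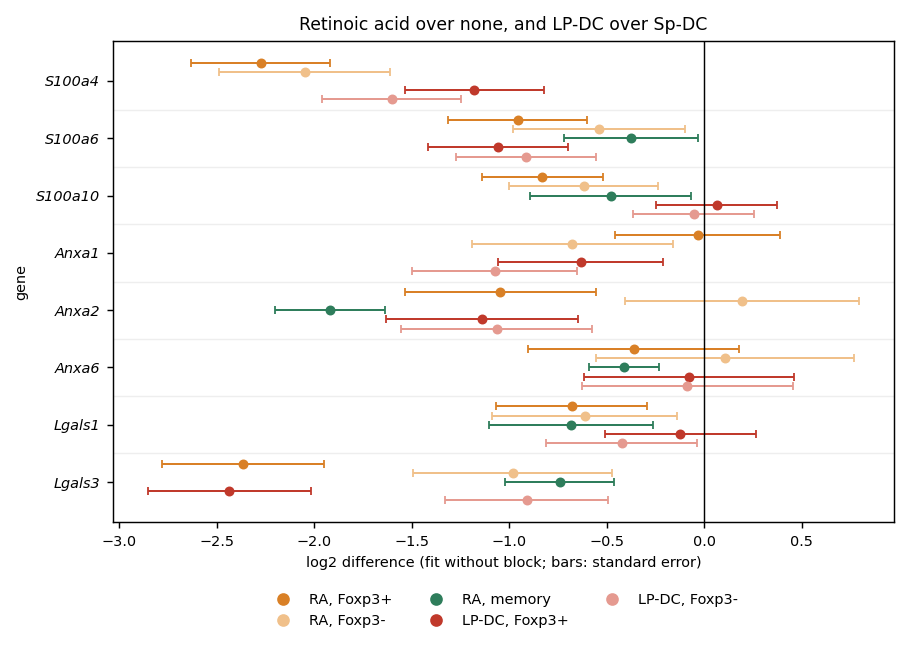
Log2 difference (x axis) for each gene (y axis) with RA over without, in Foxp3+, Foxp3- and memory cells, and for LP-DC over Sp-DC in Foxp3+ and Foxp3- cells. Points are estimates without the block and bars standard errors, and S100a4 and Anxa1 have no memory point because they lay under the filter. These contrasts chose the genes. S100a10 and Anxa6 sit near 0 for LP-DC, and Lgals3 is farthest left in Foxp3+ cells.

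Of 10 tested dendritic cell markers, 1 was lower with LP-DC than with Sp-DC in each sort with the block and 0 without it. The medians of the 10 were -0.14 in Foxp3+ and -0.07 in Foxp3- cells. The marker that passed was the class II gene H2-Ab1, at -1.13 ± 0.21 in Foxp3+ cells (adjusted p = 0.0414) and -1.23 ± 0.21 in Foxp3- cells (adjusted p = 0.0422), where 1.52% and 0.624% of genes passed. In the RA contrasts of the co-culture 0 of the 10 passed, while in memory cells 1 of 9 was higher and 1 lower with the block. In the co-culture 0 of 2 tested macrophage and monocyte markers passed in the RA or LP-DC over Sp-DC contrasts, with or without the block. With LP-DC over Sp-DC plus RA in Foxp3+ cells, 1 of the 2 was lower with the block (median -0.77), where 1.91% of all genes passed, and 0 without it. The 14 dendritic cell markers summed to 995 to 1098 with LP-DC, 1063 to 1164 with Sp-DC plus RA and 1071 to 1173 with Sp-DC in Foxp3+ cells. In Foxp3- cells they summed to 989 to 1023, 1227 and 1023 to 1142 in the same order of cultures. The 8 macrophage and monocyte markers summed to 606 to 802 with Sp-DC plus RA in Foxp3+ cells and 803 in Foxp3- cells, against 474 to 562 and 419 to 499 with Sp-DC. Adgre1 was at 8.10 to 8.97 with Sp-DC plus RA and 7.03 to 7.99 with Sp-DC, and Itgam (3.52 to 4.13) and Lyz2 (5.23 to 5.46) stayed under the array median on all co-culture arrays. The part of these transcripts in the differences was not tested.

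In memory cells 6 members could be measured, and all 6 were lower with RA (median -0.58, all genes 0.00). Anxa2 was at -1.92 ± 0.28 (3.78-fold lower) and Anxa6 at -0.41 ± 0.18, and the arrays of both did not overlap, which held for 3.42% of all genes in that direction. Lgals3 was at -0.74 ± 0.28, Lgals1 at -0.68 ± 0.42, S100a10 at -0.48 ± 0.41 and S100a6 at -0.38 ± 0.34, all with overlapping arrays. In each group the array numbered 3 read high for S100a6, S100a10 and Lgals1. Without both arrays numbered 3, a choice made after seeing the data, S100a6 was at -0.13, S100a10 at -0.49, Lgals1 at -0.59, Lgals3 at -0.57, Anxa6 at -0.42 and Anxa2 at -1.82. Summed CD8 T and NK cell markers were 987 to 1396 with RA and 502 to 756 without. Of 3 tested, 2 were higher with the block, where 4.61% of all genes passed, and 0 without it. In Foxp3+ co-cultured cells, 1 of 4 was lower with the block for RA (median -0.30) and 1 of 4 for LP-DC over Sp-DC (median -1.20). There 1.13% and 1.52% of all genes passed, and in Foxp3- cells 0 of 4 passed in either contrast. The part of these transcripts in the Lgals3 values was not tested.

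Probe sets of 1 gene gave similar values in some contrasts and not in others. The 3 probe sets of S100a10 gave -0.83, -0.65 and -0.65 with RA in Foxp3+ cells, but -0.48, 0.02 and -0.63 in memory cells. The 2 of Lgals1 gave -0.68 and -0.84 with RA in Foxp3+ cells and -0.68 and -0.66 in memory cells. The 4 of Anxa6 gave -0.21 to -0.50 with RA in memory cells, while in Foxp3- cells the one used was at 0.11 and the other 3 at -0.18, -0.46 and -0.31. Anxa2 rests on 1 of its 3 probe sets, because the other 2 read 2.60 to 5.94 in all co-culture groups, at or under background. The probe set that S100a11 shares read 8.74 to 10.11 over the 17 arrays.

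Relatives of the 8 genes were tested in the same fits. In the co-culture 3 other S100 genes, 3 other annexins and 6 other galectins passed the filter, and 0 of these 12 passed in the mean of the sort, in the RA contrasts or in the LP-DC contrasts, with or without the block. In Foxp3- cells, RA passed 0.00855% of genes without the block and 0.274% with it, and LP-DC over Sp-DC 0 genes (limma, 765 at an unadjusted p under 0.05) and 0.624%. The medians of the mean sort difference were 0.05 for the S100 genes, -0.32 for the annexins and -0.19 for the galectins, against -0.03 for all genes. S100a5, which lies between S100a4 and S100a6, differed by 0.05 in the sort and by 0.25 with RA in Foxp3+ cells. With RA in memory cells 0 relatives passed without the block, where 0.0419% of 11921 genes did. With the block, where 4.61% did, Anxa3 fell by 1.28 ± 0.16 (adjusted p = 0.00181) and Lgalsl, a galectin-like gene, rose by 0.70 ± 0.13 (adjusted p = 0.0142), of 3 S100 genes, 5 annexins and 6 galectins tested. These block calls rest on pairing by array number, which is not shown for memory arrays other than those numbered 3. Lgals9, the ligand of the receptor Tim-3, was at 0.54 and did not pass.

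Of 21 binding partners and receptors 15 were tested in the co-culture, and of 16 genes of the actin and membrane skeleton all 16. None passed without the block in any comparison, and the following calls are those with the block. In the mean of the sort, where 4.62% of genes passed, 1 partner and 2 skeleton genes fell. Cd7, a T cell surface receptor for galectin-1, differed by -0.92 ± 0.19 (adjusted p = 0.0215). Myo1f, an unconventional myosin, differed by -0.85 ± 0.16 (adjusted p = 0.0124) and Cd44, the hyaluronan receptor, by -0.36 ± 0.08 (adjusted p = 0.0413). In the LP-DC sort, where 3.53% of genes passed with the block and 0.197% without, 0 partners passed, and Myo1f (-1.07 ± 0.25, adjusted p = 0.0485) and Actn1, an actin crosslinker (-1.10 ± 0.24, adjusted p = 0.0389), fell.

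With RA in Foxp3+ cells, where 0.103% of genes passed without the block and 1.13% with it, 1 of 16 skeleton genes and 0 of 15 partners fell. It was Crip1, a LIM domain protein, at -0.94 ± 0.18 (adjusted p = 0.0402). With LP-DC over Sp-DC in Foxp3+ cells, where limma called 0 genes without the block (904 at an unadjusted p under 0.05) and 1.52% with it, Plp2, a membrane protein, fell by 0.91 ± 0.17 (adjusted p = 0.0414). With LP-DC over Sp-DC plus RA, where 0.0941% and 1.91% passed, Rasa1, a GTPase-activating protein, rose by 0.72 ± 0.14 (adjusted p = 0.0407) and Flna, an actin crosslinker, by 0.95 ± 0.17 (adjusted p = 0.0264).

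For RA in memory cells, where 4.61% of genes passed, 2 of 14 partners were higher and 1 was lower. Ahnak, the large scaffold that the S100a10 and Anxa2 complex binds, fell by 1.29 ± 0.14 (adjusted p = 0.00077). Mgat5, the enzyme that builds branched sugars bound by galectins, rose by 0.86 ± 0.14 (adjusted p = 0.00798), and Lgals3bp, a secreted ligand of galectin-3, by 0.78 ± 0.13 (adjusted p = 0.00957). Of 16 skeleton genes the intermediate filament Vim fell by 1.03 ± 0.14 (adjusted p = 0.00256) and the actin capping gene Capg rose by 0.57 ± 0.13 (adjusted p = 0.0468). The medians were -0.02 for the partners and 0.01 for the skeleton genes, against 0.00 for all genes.

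**Figure D4:**
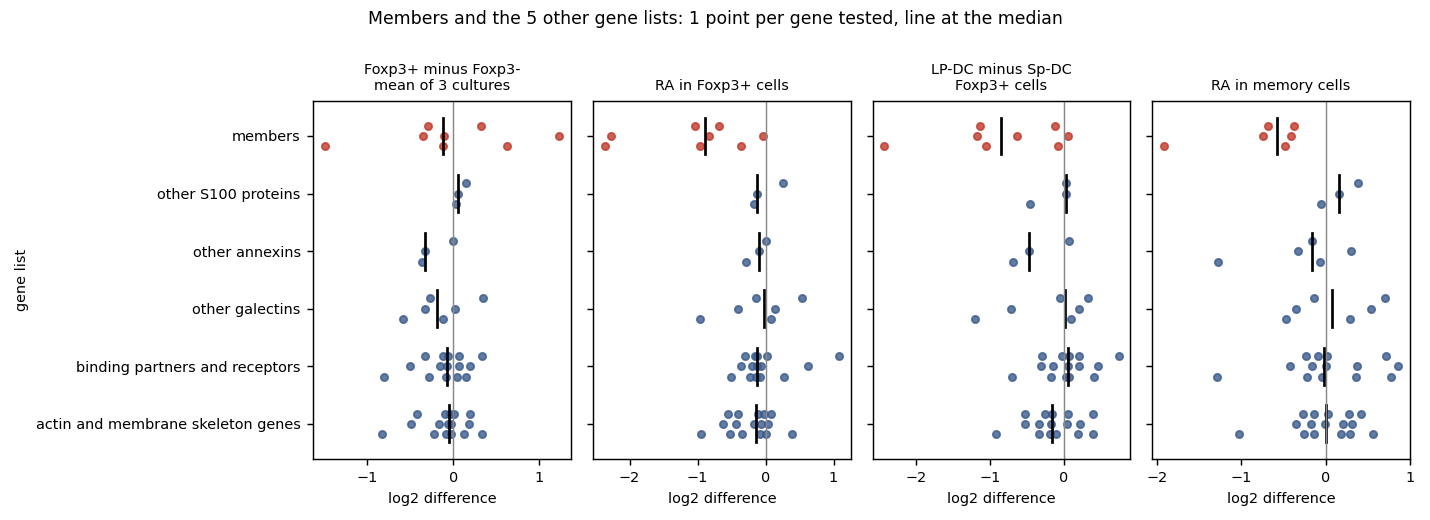
Log2 difference (x axis) of each gene tested, by list (y axis), in 4 comparisons, with a line at the list's median, from the fit without the block. The 8 genes are in red and were chosen for the RA and LP-DC contrasts, so their place in those panels is not a finding. The medians of the other lists lie between -0.47 and 0.16.

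The 4 genes named in the choice did not share 1 pattern over the arrays. After the mean of each experiment was removed, Pearson's r over the 17 arrays was 0.74 between S100a4 and S100a6, the highest of all pairs of members, and 0.22 between S100a4 and Lgals3. Anxa2 went with Lgals1 at 0.69 and with Lgals3 at 0.63, and the lowest pair was S100a10 with Anxa1 at -0.59. These are descriptions over arrays that share cultures, array numbers and normalization. Of 11266 other genes, those most like Lgals3 were Tbx21 (0.88), the Th1 transcription factor, Dap (0.88), Scpep1 (0.87), Slpi (0.84) and Inpp1 (0.83), where the 99th percentile of all r was 0.66.

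The genes most like S100a4 were Endou (0.86), the interferon-induced membrane genes Ifitm2 (0.79) and Ifitm3 (0.77), the cytokine Osm (0.77) and Gstp3 (0.76), with a 99th percentile of 0.54. Those most like S100a6 were Park7 (0.83), the ferritin heavy chain Fth1 (0.82), Lamtor2 (0.80), Rell1 (0.78) and Bzw2 (0.77), with a 99th percentile of 0.59. Those most like Anxa2 were Higd1a (0.94), the glycolytic enzyme Tpi1 (0.94), Mboat2 (0.92), the transcriptional repressor Prdm1 (0.92) and Vim (0.89), with a 99th percentile of 0.75. No gene stands among the first 5 of more than 1 of the 4.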

How the data were processed

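Transcripts were measured on 17 arrays. The deposited table holds linear intensity values of 45101 probe sets, which per the labels the authors made with RMA in GenePattern. The sources used here give neither its settings nor whether the arrays were normalized in 1 run. The log2 was taken with no pseudocount. Under the platform's annotation 34958 probe sets have 1 symbol, 932 several and 9211 none, and only the first kind was used. A gene is represented by its brightest probe set, cross-hybridizing kinds being passed over where another exists. A gene was tested if 2 or more arrays of the experiment had it above their median, 11695 in the co-culture and 11921 in the memory experiment.

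Per experiment, limma 3.58.1 (R 4.3.3) was fitted with 1 coefficient per group, empirical Bayes and adjustment by Benjamini and Hochberg over every tested gene (threshold 0.05). A single array takes its spread from the other groups. The co-culture fit had 5 residual degrees of freedom and a prior of 3.18, the memory fit 4 and 2.59. With the block the co-culture fit had 4 and 5.63, and the memory fit 2 and 7.22. Groups follow the array titles and the sort after culture, which the source labels of 5 Foxp3+ arrays contradict. Pairing by the number in the array titles is inferred here. Residuals of arrays with the same number correlated at 0.45 to 0.75 over 10 pairs of co-culture groups and at 0.65 to 0.94 in memory cells. In memory cells, however, arrays numbered 1 and 2 correlated as highly across numbers, at 0.79 and 0.64. There only the arrays numbered 3 stood apart, so pairing of the other numbers is not shown. Fits with the number as a block are printed where they change a call.

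The members and lists were chosen with earlier results of these data known. Genes named are the members, up to 4 genes of each list that passed in either fit, and for each of S100a4, S100a6, Anxa2 and Lgals3 the 5 most alike by Pearson's r. S100a5, Lgals9 and the cell type markers named were chosen outside that rule, after their values were seen. Tests of the members were planned for the sort in each culture and are not given, because those arrays were used in choosing the genes. The mean of the sort, for which tests are given, rests on the same arrays. The fit was tested on simulated data. Alternatives were the block, quantile normalization, median-centring, no filter or one at the 60th percentile, averaging all probe sets, adding 32 before the log2, trended robust variance, only the compared groups, and each array left out. The number of arrays limits the precision.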

Additional observations from a re-analysis of the deposited data

How the results depend on the processing

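The term for array number moved the results most. In the mean of the sort, limma called 540 genes with the replicate block and 96 without, and 3 of the 8 members against 1. In the LP-DC sort the block gave 413 genes (23 without). For RA it gave 132 genes in Foxp3+ cells (12 without) and 550 in memory cells (5 without), and for LP-DC over Sp-DC 178 in Foxp3+ and 73 in Foxp3- cells (0 without). The mean sort call of Lgals3 was lost with median-centring, no filter, or 32 added before the log2, leaving 0 members. S100a4 passed beside Lgals3 under quantile normalization (2 members, 149 genes) and with the filter at the 60th percentile (2 members). In the LP-DC sort, genes called were 48 with quantile normalization, 36 with that stricter filter, 37 with averaged probe sets, 36 with trended robust variance and 0 with the compared groups only. The compared groups only gave 3 genes for RA in Foxp3+ cells. For RA in memory cells no filter gave 10, averaged probe sets 14, and leaving out both arrays numbered 3, chosen after seeing the data, 227. Averaged probe sets changed the members' median for LP-DC over Sp-DC to -0.52 in Foxp3+ and -0.49 in Foxp3- cells.

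In the mean of the sort the sign of 2 genes turned in 19 settings, and none of these passed. With the block, Anxa6 was at 0.030.

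Ranges with 1 array left out cover fits with and without the block. A lone array left in a group is assumed to vary like the others. Genes called ran from 3 to 576 in the mean of the sort, and 0 to 446 in the LP-DC sort. Members passing ran from 0 to 3 in the mean of the sort. For RA the genes called ran from 3 to 158 in Foxp3+ cells and 0 to 656 in memory cells, and for LP-DC over Sp-DC from 0 to 412 in Foxp3+ and 0 to 231 in Foxp3- cells. The members' median there ran from -1.04 to -0.51 and from -0.97 to -0.63. In the mean of the sort Anxa6 ran from -0.33 to 0.11 and Lgals1 from -0.27 to 0.060. For RA in Foxp3- cells, 2 genes given there without a test, Anxa2 and Anxa6, turned sign with the block. The cause of these shifts was not tested.

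With 1 or 2 arrays per co-culture group, differences under about the spread between arrays paired by number cannot be resolved. Every value of Sp-DC plus RA Foxp3- cells rests on a single array. Foxp3, Anxa1 and the memory level of S100a4 lie near background, where an array cannot order them.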
